A study of Homo sapiens with 8 samples.

Results

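MDA-MB-231 cells whose SUN2 lacks its lamin-binding region were compared with unmodified cells of the same line. MDA-MB-231 is an established human breast cancer line with mesenchymal features. The modified group, LBD, carries a SUN2 truncation that removes residues 1 to 139, and the unmodified group is WT. Each group had 2 RNA-seq libraries. Of 25369 genes in the count table, 14016 passed a filter on low counts and were tested, and these genes are the subject here. The series holds 8 libraries, and the other 4 come from a SUN2 knockout (SUN2KO, 2 libraries) and from a truncation that removes residues 569 to 585 to break the link to Nesprin-2G (Kashlid, 2 libraries). One growth protocol with high-glucose medium and serum is given for all groups, and no treatment is named. The labels do not say how the truncations were introduced, whether the endogenous SUN2 was kept, or whether a line is a single clone. Nor do they tell whether the paired libraries stem from independent cultures, so each p-value rests on library-to-library spread that could be technical alone.

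SUN2 sits in the inner nuclear membrane. Its nucleoplasmic end binds the lamin meshwork, and its SUN domain reaches across the space between the nuclear membranes to hold KASH proteins, the nesprins, which bind the cytoskeleton. The SUN and KASH proteins together form the LINC complex (linker of nucleoskeleton and cytoskeleton), which carries force from the cell surface to the nucleus. The comparison shows which genes differ between the LBD line and WT. With this design, loss of lamin binding, a lower level of SUN2 RNA and other differences between the lines cannot be told apart.

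Total counts were 17146119 and 16570099 in the LBD libraries and 17115114 and 17779388 in the WT libraries, within a range of 16570099 to 18814795 over all 8. On the first principal component, which held 51.2% of the variance, both WT libraries lay apart from the 6 libraries of the modified lines. Levels are given in CPM, the read count scaled to a common library total, or as counts, and differences as log2 fold changes, followed against WT by ± the standard error where 1 is shown. A gene was called where its adjusted p in edgeR's quasi-likelihood test, with Benjamini-Hochberg adjustment over all 14016 genes, was under 0.05.

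In all, 5611 genes were called between LBD and WT, 40.0% of those tested. Of these, 2670 were higher in LBD (19.0% of all tested) and 2941 were lower (21.0%). The count ranged from 4014 to 4347 when 1 of these 4 libraries was left out. A difference of at least 2-fold was found for 813 of the called genes (5.80%), 471 higher and 342 lower. The median difference over all genes was 0.00 on the log2 scale, and the median size of a difference was 0.225. The counts of called members in the gene lists of the following paragraphs read against these shares.

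Markers of the line were present in both groups. The summed level of 7 markers of mesenchymal breast cancer cells (VIM, CD44, AXL, CAV1, MSN, S100A4 and ANXA1) was 2350 and 2378 CPM in WT and 2273 and 2300 CPM in LBD. Of these markers 2 were called higher in LBD, CD44 at 0.31 ± 0.05 and MSN at 0.16 ± 0.05 (MSN not without LBD replicate 1 or either WT library). The 3 called lower included CAV1 at -0.68 ± 0.07 and S100A4 at -0.59 ± 0.04. For 15 luminal breast markers the sums were 1657 and 1609 CPM in WT and 2102 and 2077 CPM in LBD, most of it from the keratins KRT8 and KRT18, and 6 of 11 tested were called higher and 2 lower. The estrogen receptor ESR1 stayed under 1 CPM in all 4 libraries, and the progesterone receptor PGR had 1 count in each WT library and none in LBD. For 9 markers of HEK293-type cells, a kidney-derived line that the growth protocol also names, the sums were 242 and 239 CPM in WT and 226 and 233 CPM in LBD, and 2 of 5 tested were called higher and 3 lower. The RNA-binding protein IGF2BP1 rose by 0.31 ± 0.06 and LIN28B, another RNA-binding protein, had 0 counts in both WT libraries and 12 and 11 in LBD (called, adjusted p = 0.000754 in edgeR). TUBB2B, CKMT1A and IGF2BP3 were the 3 called lower. PAX2, NEFM and LIN28A had 0 counts in both LBD libraries and at most 3 in a WT library, and NEFL had 1 count in 1 library of each group. For 10 markers of leukocytes, endothelium and fibroblasts the sums were 34.2 and 35.3 CPM in WT and 62.8 and 62.2 CPM in LBD. The lysosomal protein CD68 held most of that sum in LBD and rose by 1.33 ± 0.09 (adjusted p = 4.68e-10 in edgeR), while CD3E and PDGFRA had 0 counts in every library. Of 6 tested markers of this list, 3 were called higher and none lower (1 was called with DESeq2, without LBD replicate 1, without WT replicate 1 or without WT replicate 2). In RNA of whole cultures, a change in the share of cells and a change in RNA per cell cannot be told apart.

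SUN2 itself (chr22:39130719-39151467, with gene positions in hg19 throughout) was lower in LBD. Its level was 83.7 and 81.9 CPM in WT and 32.5 and 34.6 CPM in LBD, a difference of -1.30 ± 0.08 (adjusted p = 9.22e-11 in edgeR). The LBD and WT values did not overlap, and SUN2KO (25.6 and 30.3 CPM) and Kashlid (37.2 and 35.4 CPM) were also low. Between LBD and SUN2KO the difference was 0.26, with an adjusted p of 0.0501 in edgeR. Counts per gene do not show which part of the transcript the reads came from, so the deletion itself was not checked.

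Around SUN2, 45.8% of the tested nuclear envelope genes were called, near the 40.0% of all genes. Of 24 tested LINC complex and nuclear envelope genes, 4 were called higher and 7 lower, with a median of -0.05 (0.00 over all genes). SYNE3, a nesprin of the outer nuclear membrane, rose from 1.78 and 1.19 CPM in WT to 5.21 and 4.90 CPM in LBD (1.76 ± 0.26, adjusted p = 1.74e-05 in edgeR). SYNE2, which encodes the giant nesprin-2, differed by 0.13 ± 0.06 and was not called. Its paralog SYNE1 differed by 0.00 ± 0.10. SUN1, the other widely expressed SUN protein, fell slightly, from 123 and 139 to 111 and 114 CPM (-0.22 ± 0.07). The median over the tested genes of its 5 Mb window was -0.31, so SUN1 did not fall more than its neighbours. The lamin gene LMNA fell by 0.15 ± 0.05 and LMNB2 rose by 0.15 ± 0.05, while LMNB1 (-0.07 ± 0.05) and the lamin-binding protein EMD (0.03 ± 0.07) were not called. TMEM43, an inner membrane protein that binds emerin, rose from 137 and 136 to 194 and 189 CPM (0.49 ± 0.05), and NARF, which binds the tail of prelamin A, rose by 0.60 ± 0.08. Called genes of this list numbered 7 without LBD replicate 1 and 6 without WT replicate 1.

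Nuclear pore and heterochromatin genes were called in both directions and at shares (44.4% and 42.9%) near that of all genes (40.0%). Nuclear pore components were called higher in 5 and lower in 7 of 27, with no change beyond 0.51. The largest was NUP205, a scaffold nucleoporin, at 321 and 319 CPM in WT and 226 and 224 CPM in LBD (-0.51 ± 0.05), followed by NUP35 (-0.35 ± 0.09), NUP37 (0.29 ± 0.07) and NUP155 (-0.22 ± 0.05). Leaving out any of the 4 libraries reduced the called nuclear pore genes to 7. Heterochromatin genes were called higher in 6 and lower in 3 of 21. The DNA methyltransferase DNMT3A rose from 15.8 and 16.8 to 26.5 and 23.8 CPM (0.63 ± 0.10). CBX3, a heterochromatin protein of the HP1 family, fell from 422 and 416 to 285 and 271 CPM (-0.59 ± 0.05). The histone methyltransferase SUV39H2 fell by 0.47 ± 0.10 and the DNA methyltransferase DNMT3B rose by 0.44 ± 0.13 (not called without WT replicate 1, adjusted p = 0.0956 in edgeR).

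Differences also ran along chromosomes. The median over tested genes was -0.387 on chromosome 21, -0.284 on chromosome 4, -0.258 on chromosome 8 and -0.221 on chromosome 7, and it reached 0.127 on chromosome 10. On chromosome 21, 94 genes were called lower and 6 higher out of 141. On chromosome 10, 202 were called higher and 112 lower out of 550, so its median covers many changes in both directions. In all, 9 of 23 chromosomes had a median beyond 0.1 in either direction, but none did in the comparisons of LBD with SUN2KO or with Kashlid. Windows of 5 Mb holding at least 15 tested genes numbered 341, and 41 had a median beyond 0.3 against WT (14 higher, 27 lower). None of these windows did so against SUN2KO or Kashlid. In 1 alternative each gene in a window of at least 15 tested genes was measured against the median of that window. Genes outside such windows, such as MSN and FHL1, were left unadjusted, so for them this alternative tests no regional shift. With it 4498 genes were called. Under that alternative NUP205 (-0.11, adjusted p = 0.103 in edgeR), NUP155 (-0.08, adjusted p = 0.237) and NARF (0.21, adjusted p = 0.0526) were no longer called, and SUV39H2 turned to 0.08 (adjusted p = 0.566).

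**Figure D1:**
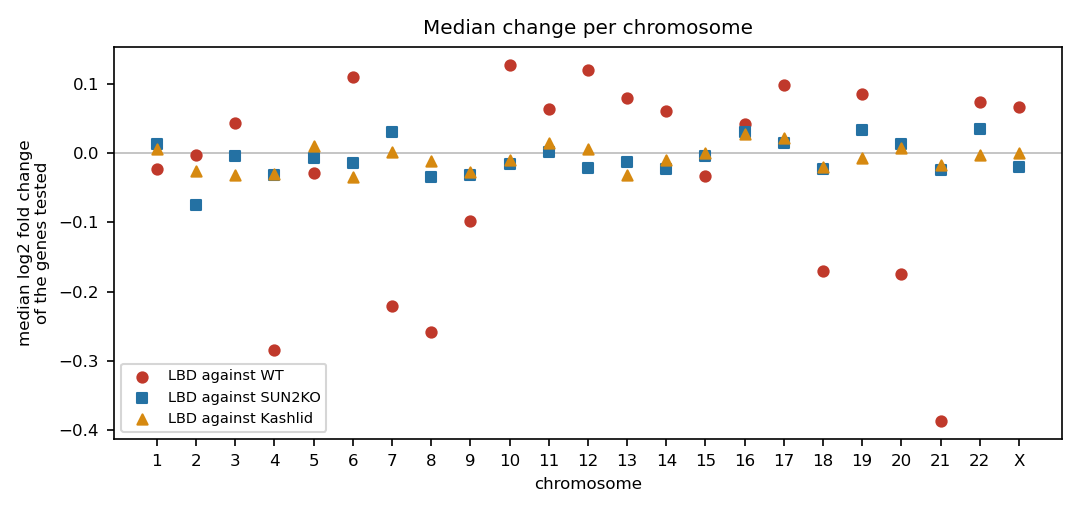
Median log2 fold change of the tested genes on each chromosome (x axis) in LBD against WT (circles), SUN2KO (squares) and Kashlid (triangles). Against WT the medians run from -0.387 on chromosome 21 to 0.127 on chromosome 10, and against the other lines all lie within 0.1 of 0.

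The largest increases by fold among genes of at least 5 CPM on average were in genes of quite different roles. AKR1C2 (chr10:5029968-5060225), a steroid-reducing enzyme, went from 1.25 and 0.909 CPM in WT to 24.9 and 24.3 CPM in LBD, 22.7-fold (4.51 ± 0.18, adjusted p = 1.70e-13 in edgeR). AKR1C2 and AKR1C1 are near-identical copies, so the split of reads between them is uncertain. COL5A3 (chr19:10070237-10121147), a chain of fibrillar type V collagen, went from 0.594 and 0.568 to 12.4 and 12.6 CPM (4.41 ± 0.24). Next came the secreted protein SRPX2 (3.36 ± 0.19) and the vesicle-trafficking protein SYTL4 (3.33 ± 0.18). The receptor NOTCH3 (chr19:15270444-15311792) rose 8.34-fold, from 4.10 and 5.34 to 37.9 and 41.1 CPM. PTGS2 (chr1:186640944-186649559), the inducible cyclooxygenase, rose 7.81-fold, from 35.7 and 37.0 to 260 and 308 CPM. TC2N (18.8 and 21.9 CPM in LBD, 2.62 and 2.44 CPM in WT), the adhesion receptor GPR97 (2.92 ± 0.25), the leukotriene-forming lipoxygenase ALOX5 (2.76 ± 0.18) and the zinc finger gene ZNF300 (2.56 ± 0.13) were also among the 12. The other two, OAS2 and OASL, belong to the interferon response. In none of the 12 did an LBD value reach down to a WT value, but these genes were chosen for the size of that difference.

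Among the largest decreases, CRISPLD1 (chr8:75896708-75946793), a secreted protein, fell from 12.8 and 12.7 CPM to 0.405 and 0.538 CPM (-4.74 ± 0.28, adjusted p = 5.15e-11 in edgeR). TUSC3 (chr8:15397596-15624158), a subunit of the oligosaccharyltransferase that adds N-linked sugars in the endoplasmic reticulum, fell from 54.3 and 63.2 to 2.72 and 2.27 CPM (-4.55 ± 0.16). RCN3, a calcium-binding protein of the secretory pathway, fell by 3.92 ± 0.28 and the pseudogene TCAM1P by 3.82 ± 0.28. CGA, the shared alpha subunit of glycoprotein hormones, fell from 13.0 and 12.8 to 2.02 and 1.38 CPM. The myosin light chain kinase MYLK3 (-2.78 ± 0.22) and the actin-binding protein NEXN (-2.56 ± 0.15) are contractile genes. The katanin-like gene KATNAL2 (-2.76 ± 0.20), the quinolinate enzyme QPRT (-2.60 ± 0.19), the transcription factor ATOH8 (-2.52 ± 0.22), the membrane glycoprotein GPNMB (-2.48 ± 0.21) and the membrane-bending protein MTSS1 (-2.45 ± 0.26) complete the 12. As with the increases, the LBD and WT values of these 12 genes did not overlap, which their choice by size made likely.

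**Figure D2:**
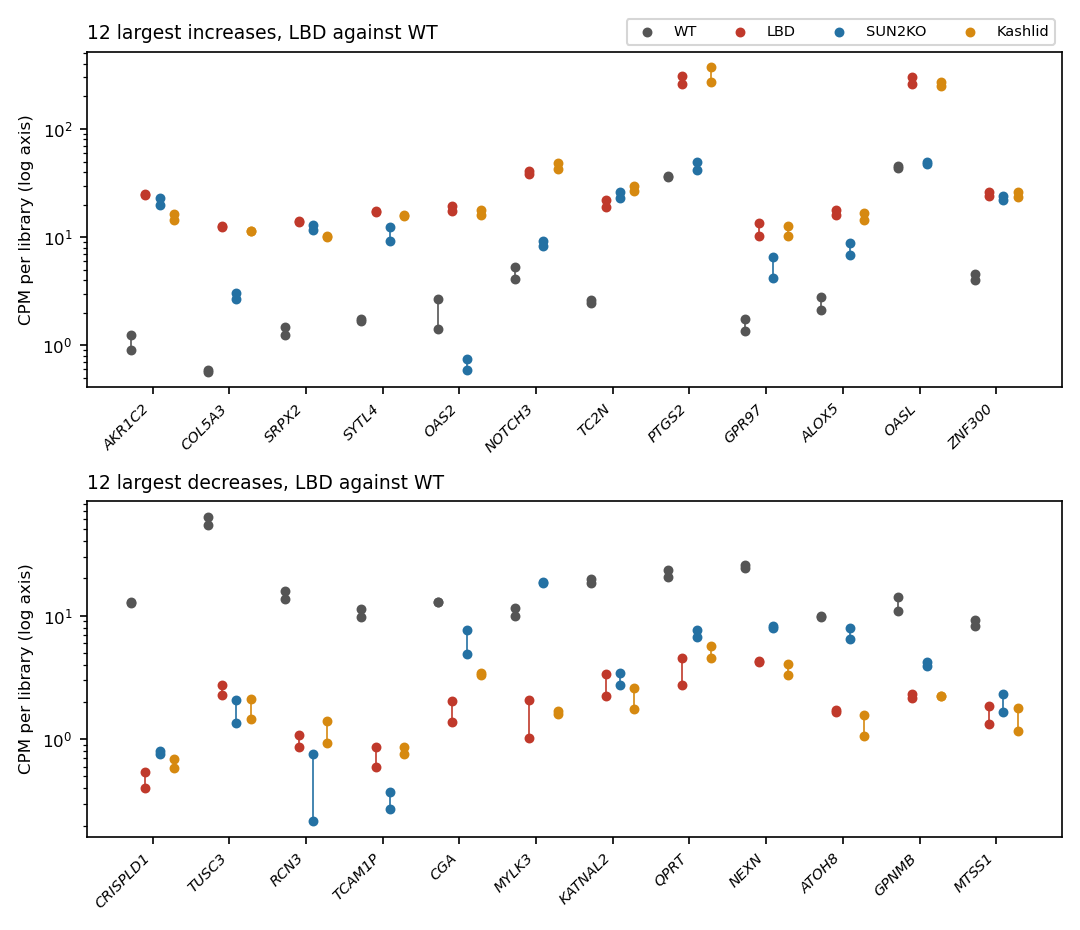
Level of each of the 12 genes with the largest increases (top) and decreases (bottom) in LBD against WT, in CPM on a log axis, with 1 point per library and a line joining the 2 libraries of a group. LBD and WT points do not overlap for any of the 24 genes, which were chosen for the size of this difference. For AKR1C2, TC2N and TUSC3 the points of all 3 modified lines lie together on one side of WT.

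In absolute level, the 5 largest gains were in EEF1A1, GAPDH, ACTG1, H19 and EEF2. EEF1A1, the elongation factor that brings tRNAs to the ribosome, went from 7367 and 7506 CPM to 8805 and 8902 CPM (0.25 ± 0.03), although it was not called once measured against its window (0.07, adjusted p = 0.0563 in edgeR). The glycolytic enzyme GAPDH rose by 0.40 ± 0.04, the cytoplasmic actin ACTG1 by 0.46 ± 0.03, the imprinted long RNA H19 by 0.86 ± 0.07 and the elongation factor EEF2 by 0.27 ± 0.03. Against their windows, GAPDH was at 0.19 and ACTG1 at 0.18, both still called. The largest loss was in SLC7A5, an amino acid transporter, from 2100 and 2092 to 1193 and 1244 CPM (-0.78 ± 0.06). CPS1, which makes carbamoyl phosphate, fell by 0.46 ± 0.04, the collagen chain COL5A1 by 0.80 ± 0.06, the prolyl isomerase PPIA by 0.40 ± 0.04 (-0.23 against its window) and the transferrin receptor TFRC by 0.68 ± 0.04.

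Many interferon-stimulated genes rose together. These genes are switched on when interferon signalling or nucleic acid sensors activate the transcription factors of the STAT and IRF families, many through a promoter element called the ISRE. Of 41 tested genes of this list, 28 were called higher in LBD and 2 lower, with a median of 0.70. Their summed level was 1993 and 2037 CPM in WT and 2788 and 2961 CPM in LBD. For the ISRE, the letters GAAANNGAAA were searched on both strands, overlaps allowed, in the 300 bases around each start in RefSeq (GRCh38.p14). A match was found in 15 of the 24 called-higher members that have a promoter in the table (62.5%) and in 6 of the other 8 members (75.0%), against 2.93% of 10037 promoters of tested genes and 3.65% of all 27305 promoters. A match is a description of the letters and not evidence of a bound site. The 170 bases before the start are given here for 4 genes that rose and for BST2, which fell although its promoter holds the letters too. Capitals mark the matches, overlapping ones joined, and a match on the opposite strand reads TTTCNNTTTC.
ISG15 (chr1:1013327-1013496, + strand): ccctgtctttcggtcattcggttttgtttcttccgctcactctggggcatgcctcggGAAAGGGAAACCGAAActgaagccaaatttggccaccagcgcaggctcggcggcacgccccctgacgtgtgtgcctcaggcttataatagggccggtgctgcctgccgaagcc
IFIT1 (chr10:89392453-89392622, + strand): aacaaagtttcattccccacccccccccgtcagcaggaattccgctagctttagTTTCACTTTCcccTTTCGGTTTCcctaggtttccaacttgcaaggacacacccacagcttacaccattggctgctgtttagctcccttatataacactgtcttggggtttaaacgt
IFIT3 (chr10:89327827-89327996, + strand): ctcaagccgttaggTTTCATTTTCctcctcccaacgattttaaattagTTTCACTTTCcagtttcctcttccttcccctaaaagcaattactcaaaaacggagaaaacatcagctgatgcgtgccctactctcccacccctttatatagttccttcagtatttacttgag
HERC5 (chr4:88456949-88457118, + strand): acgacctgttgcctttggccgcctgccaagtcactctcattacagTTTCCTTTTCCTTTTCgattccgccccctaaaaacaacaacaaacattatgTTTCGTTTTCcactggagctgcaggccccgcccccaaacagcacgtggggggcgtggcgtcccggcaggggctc
BST2 (chr19:17405631-17405800, - strand): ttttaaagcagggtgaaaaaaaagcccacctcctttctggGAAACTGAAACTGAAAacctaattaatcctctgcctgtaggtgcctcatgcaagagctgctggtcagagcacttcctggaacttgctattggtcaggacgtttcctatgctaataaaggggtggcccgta

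Among the genes whose promoters are printed, ISG15, a ubiquitin-like modifier, went from 29.3 and 33.5 CPM in WT to 151 and 209 CPM in LBD (2.52 ± 0.11, adjusted p = 6.59e-13 in edgeR). IFIT1, which binds foreign RNA, went from 17.8 and 15.1 to 73.4 and 83.2 CPM (2.25 ± 0.11). IFIT3 rose by 1.57 ± 0.09 and HERC5, the ligase that attaches ISG15, rose from 25.2 and 25.7 to 90.6 and 100 CPM (1.90 ± 0.07). All 4 were higher in both LBD libraries than in either WT library, but they were picked as genes that rose. By contrast BST2, a membrane protein that tethers virus particles, fell from 343 and 340 to 232 and 239 CPM (-0.53 ± 0.05).

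The largest increases of the list were in the oligoadenylate synthetase family, which responds to double-stranded RNA, and in antiviral effectors. OAS2 (chr12:113416274-113449528) went from 2.67 and 1.42 to 17.3 and 19.4 CPM (3.17 ± 0.20), and OASL (chr12:121458095-121477045) from 43.3 and 45.3 to 263 and 304 CPM (2.68 ± 0.07, adjusted p = 3.34e-16). MX2 went from 0.297 and 0.170 to 2.20 and 1.55 CPM (2.98 ± 0.51). MX1, at 0.654 and 1.48 CPM in WT and 1.04 and 0.837 CPM in LBD, overlapped between groups. MX1 is among the 11 members that were not called.

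**Figure D3:**
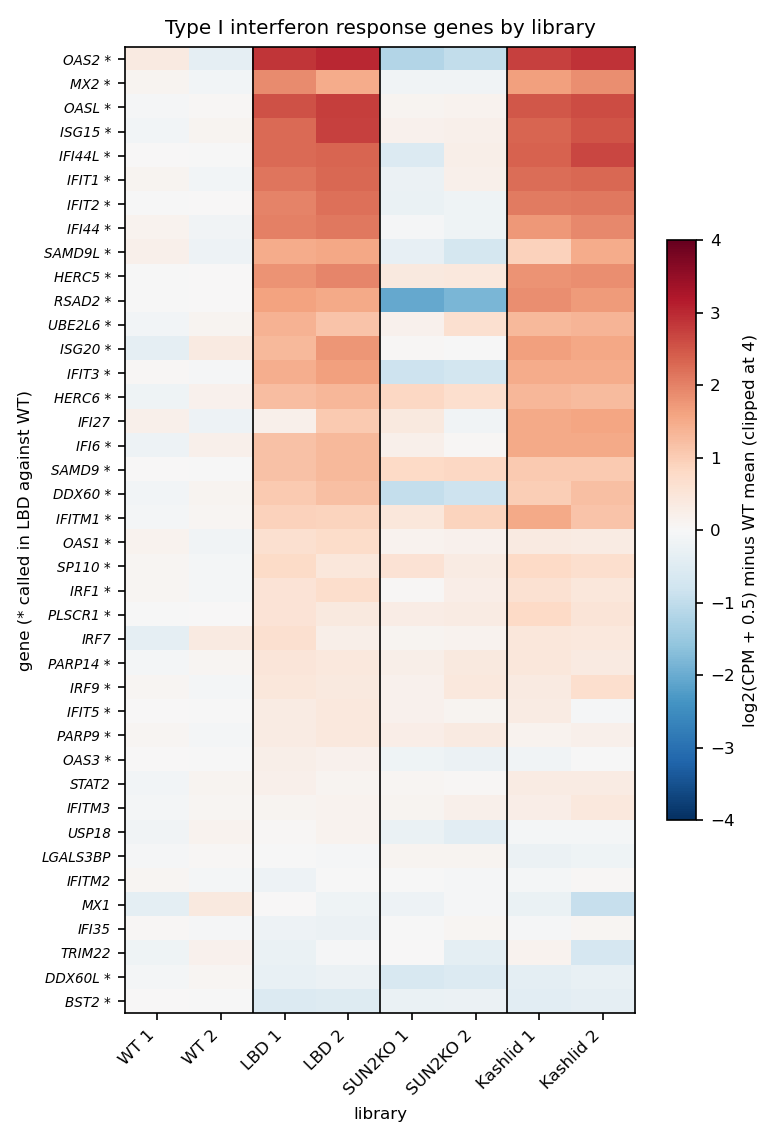
Levels of tested type I interferon response genes (rows) in the 8 libraries (columns) as log2(CPM + 0.5) minus the mean of the 2 WT libraries, with red higher and blue lower, clipped at 4. Both LBD and both Kashlid columns are red for genes from OAS2 down to IFITM1, except IFI27 in LBD replicate 1, while the SUN2KO columns are near WT or blue for most of these genes and BST2 is blue in both LBD columns.

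Among 19 tested nucleic acid sensing genes, 7 were called higher and 2 lower (47.4%, against 40.0% of all genes), with a median of 0.08. RNF125, a ubiquitin ligase that marks the sensor RIG-I for degradation, rose from 0.892 and 0.909 to 9.66 and 8.31 CPM (3.31 ± 0.25). DDX58, which encodes RIG-I, rose from 12.8 and 13.2 to 48.6 and 56.1 CPM (2.01 ± 0.11), and the related sensor IFIH1 by 1.45 ± 0.13. DHX58, at 0.832 and 0.398 CPM in WT and 1.68 and 1.85 CPM in LBD, was called (1.52 ± 0.45) but lost the call without WT replicate 2 (1.08, adjusted p = 0.139 in edgeR), without LBD replicate 2 and with DESeq2. The adaptor MAVS (-0.02 ± 0.05) and the kinase TBK1 (0.05 ± 0.07) were not called.

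Cytokine genes that NF-kB controls, and its feedback inhibitors, were called higher in 15 and lower in 2 of 25, with a median of 0.29. With DESeq2, or without LBD replicate 2, WT replicate 1 or WT replicate 2, 11 were called. CCL5, a chemokine for T cells, rose from 15.5 and 17.3 to 38.1 and 49.8 CPM (1.42 ± 0.11). CXCL10 rose by 2.09 ± 0.47, CXCL11 by 1.83 ± 0.36 and IL1B by 1.75 ± 0.38, all from under 1 CPM in WT. Among other cytokines of low level, CXCL2 (-0.40 ± 0.34) and CXCL3 (-0.15 ± 0.37) were not called. CSF1 was called lower (-0.57 ± 0.20), but not without LBD replicate 2 (-0.33, adjusted p = 0.288 in edgeR; -0.86 without LBD replicate 1), without either WT library or with DESeq2. The feedback inhibitor TNFAIP3 went the other way, from 109 and 116 to 40.0 and 49.2 CPM (-1.33 ± 0.14, adjusted p = 2.62e-07 in edgeR), while the inhibitor NFKBIA rose by 0.44 ± 0.07. IL6 differed by 0.69 ± 0.35 and was not called.

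MHC class I genes, which present peptides to T cells, were called higher in 3 and lower in 5 of 21. HLA-B fell from 344 and 359 to 256 and 278 CPM (-0.40 ± 0.05), but reads of HLA genes can be split between similar copies. The trimming peptidase ERAP2 rose by 1.18 ± 0.26. HLA-F (-0.70 ± 0.19, lost without LBD replicate 1, adjusted p = 0.051 in edgeR) and the proteasome subunit PSMB9 (-0.61 ± 0.18, lost without LBD replicate 2 and without WT replicate 2) were lower. The count of called members was 5 without LBD replicate 2 or WT replicate 2 and 13 when genes were measured against their windows.

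Prostaglandin genes were called higher in 5 and lower in 4 of 17. Beside PTGS2, the constitutive cyclooxygenase PTGS1 rose from 18.8 and 26.0 to 79.8 and 88.2 CPM (1.90 ± 0.10, adjusted p = 4.71e-12 in edgeR). PTGFR, the receptor for prostaglandin F, rose by 1.35 ± 0.24, and thromboxane synthase TBXAS1 fell by 2.32 ± 0.49 (-3.81 without LBD replicate 2). The synthase PTGES, at 355 and 352 CPM in WT and 368 and 357 CPM in LBD, was not called.

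Genes controlled by SRF and its actin-sensing cofactor MRTF were called lower in 15 and higher in 3 of 26, with a median of -0.18, and 8 were not called. Their summed level was 15392 and 15104 CPM in WT and 14966 and 15000 CPM in LBD. ACTG1 (0.46 ± 0.03), MICAL2 (0.64 ± 0.08) and FHL1 (0.49 ± 0.13) were the members called higher, FHL1 not without LBD replicate 2. After NEXN, the largest was MYL9, a regulatory light chain of myosin II, from 60.0 and 59.3 to 25.0 and 24.3 CPM (-1.27 ± 0.09, adjusted p = 3.78e-10 in edgeR). The smooth muscle actin ACTA2 fell by 0.99 ± 0.25 and the actin-binding caldesmon CALD1 from 293 and 286 to 149 and 144 CPM (-0.98 ± 0.05). Genes of myosin II and its regulators were called lower in 12 and higher in 4 of 23 (10 called without LBD replicate 2). MYLK3 went from 9.99 and 11.4 to 2.08 and 1.02 CPM, its relative MYLK fell by 1.21 ± 0.25 (-0.79 without WT replicate 2), and RND3, a small GTPase that loosens actin fibres, fell from 81.3 and 78.0 to 48.2 and 46.1 CPM. The heavy chains MYH9 (-0.20 ± 0.04) and MYH10 (-0.54 ± 0.06) were lower too.

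Targets and regulators of YAP and TAZ, the coactivators that respond to stiffness and spreading, were called lower in 12 and higher in 4 of 27, with a median of -0.20. CTGF, a matricellular protein and standard YAP target, fell from 4.82 and 5.57 to 2.02 and 2.21 CPM (-1.29 ± 0.26), and CYR61 from 41.2 and 39.0 to 25.9 and 27.0 CPM (-0.60 ± 0.11). CRIM1 (-0.75 ± 0.07) and AMOTL1 (-0.74 ± 0.11) were lower, and the ectonucleotidase NT5E was higher (0.95 ± 0.11). YAP1 (0.05 ± 0.05) and WWTR1, which encodes TAZ (0.01 ± 0.06), were not called.

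Integrin and focal adhesion genes were called lower in 16 and higher in 4 of 30, with a median of -0.19. ITGA1, a collagen receptor subunit, fell from 243 and 257 to 121 and 120 CPM (-1.05 ± 0.06), and its partner ITGB1 from 917 and 945 to 534 and 524 CPM (-0.82 ± 0.05). ITGA2, another collagen receptor subunit, rose from 142 and 158 to 275 and 336 CPM (1.03 ± 0.08, adjusted p = 1.72e-09 in edgeR), and the fibronectin receptor subunit ITGA5 rose by 0.74 ± 0.06. The focal adhesion kinase PTK2 fell by 0.30 ± 0.06.

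Matrix genes moved both ways. Collagens and matrix glycoproteins were called higher in 12 and lower in 13 of 36. Along with COL5A3 and SRPX2, the collagen COL8A1 rose from 1.72 and 1.31 to 5.67 and 4.90 CPM (1.80 ± 0.26), and COL13A1 had 0 and 2 counts in WT and 13 and 11 in LBD (called, but not without WT replicate 1, adjusted p = 0.0577 in edgeR). THBS1, which encodes the matricellular protein thrombospondin, fell from 84.8 and 83.8 to 25.2 and 25.8 CPM (-1.72 ± 0.11). Fibronectin, FN1, at 795 and 849 CPM in WT and 775 and 859 CPM in LBD, overlapped between groups. Matrix proteases and their inhibitors were called higher in 10 and lower in 8 of 29. MMP16, a membrane-bound metalloprotease (chr8:89049460-89339717), had 119 and 137 counts in WT and 0 and 1 in LBD. ADAM12 (1.35 ± 0.11) and ADAM8 (1.34 ± 0.20), both membrane proteases, were higher, and the secreted protease ADAMTS1 fell from 66.8 and 62.5 to 29.3 and 32.1 CPM.

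Sterol and fatty acid synthesis genes had the lowest median of the 35 pathway lists. Of 31 tested, 26 were called lower and 1 higher, with a median of -0.42, and their summed level was 4923 and 5011 CPM in WT and 4143 and 3898 CPM in LBD. SQLE, which oxidises squalene, fell from 61.9 and 62.3 to 25.0 and 20.7 CPM (-1.44 ± 0.10, adjusted p = 4.25e-10 in edgeR). The next enzyme of the pathway, LSS, fell by 1.41 ± 0.08 and the isoprenoid isomerase IDI1 by 1.32 ± 0.09. ACSL1, which activates fatty acids, fell from 44.5 and 43.1 to 11.7 and 10.3 CPM (-1.99 ± 0.11), and the median of its window was -0.61. FASN, the fatty acid synthase, was the member called higher (0.23 ± 0.05). SREBF2, which encodes the transcription factor of the pathway, fell by 0.31 ± 0.05. Its binding element was searched as TCACNCCAC on both strands. These letters were in 1 of 21 promoters of members called lower (4.76%), that of SREBF2, and in 1.07% of promoters of tested genes.

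**Figure D4:**
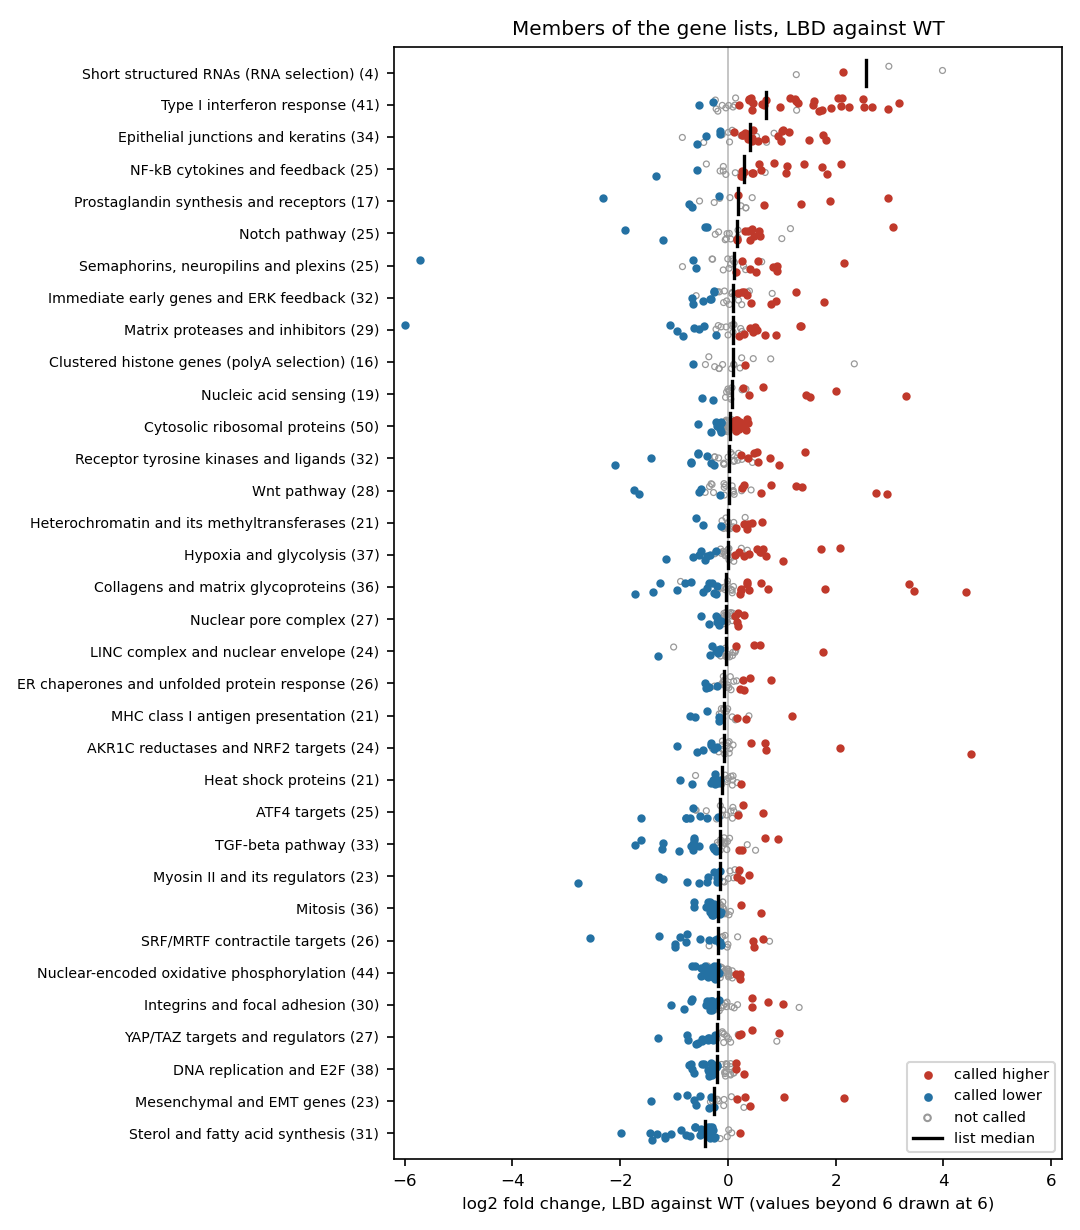
Log2 fold change in LBD against WT of each tested member (points) of the pathway lists described here, ordered by median (black bar), with the number tested in parentheses. Sterol and fatty acid synthesis has the lowest median (-0.42), and type I interferon response (0.70) lies highest apart from the 4 short structured RNAs (2.56), of which 1 was called.

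Amino acid and stress genes that ATF4 controls were called lower in 8 and higher in 3 of 25 (7 called without LBD replicate 2). NUPR1, a stress-induced chromatin protein, fell by 1.61 ± 0.31. SLC3A2, the partner of SLC7A5, fell from 727 and 725 to 419 and 428 CPM (-0.78 ± 0.08), and PHGDH, the first enzyme of serine synthesis, by 0.71 ± 0.12. ATF4 itself was not called (0.05 ± 0.08). Endoplasmic reticulum chaperones and genes of the unfolded protein response were called higher in 5 and lower in 5 of 26. SEL1L, of the degradation complex, rose by 0.41 ± 0.06 and the translocon subunit SEC61B fell by 0.43 ± 0.07. DNAJC3 fell by 0.41 ± 0.06 but by 0.01 against its window (adjusted p = 0.919 in edgeR). ERN1, the stress sensor IRE1, was called (0.80 ± 0.25) but not with DESeq2 (adjusted p = 0.168) nor without LBD replicate 2, WT replicate 1 or WT replicate 2, nor against its window (adjusted p = 0.134).

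Oxidative phosphorylation genes were called lower in 22 and higher in 4 of 44, with a median of -0.19. The succinate dehydrogenase subunit SDHC fell from 137 and 133 to 87.2 and 83.9 CPM (-0.66 ± 0.06) and SDHA from 410 and 410 to 265 and 271 CPM (-0.61 ± 0.04). The ATP synthase subunits ATP5C1 (-0.50 ± 0.06) and ATP5D (-0.49 ± 0.11) were lower, the latter not without WT replicate 1 (-0.26, adjusted p = 0.094 in edgeR). Hypoxia and glycolysis genes were called higher in 12 and lower in 8 of 37. The carbonic anhydrase CA12 rose from 4.93 and 5.23 to 19.2 and 23.9 CPM (2.08 ± 0.17). ANGPTL4, an inhibitor of lipoprotein lipase, rose from 21.6 and 27.3 to 50.8 and 111 CPM, with the LBD libraries far apart (1.72 ± 0.23, or 1.06 without LBD replicate 2). MXI1, a MYC antagonist, rose by 1.03 ± 0.10, and ANKRD37 fell by 1.16 ± 0.38 but was not called without LBD replicate 1 (-0.70, adjusted p = 0.241), without WT replicate 2, with DESeq2 or against its window, and was at -1.80 without LBD replicate 2. LDHA (0.07 ± 0.04) and VEGFA (0.11 ± 0.09) were not called.

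AKR1C reductases and NRF2 targets were called higher in 5 and lower in 7 of 24. AKR1C1 rose from 4.40 and 4.03 to 19.2 and 16.5 CPM (2.08 ± 0.15), AKR1C3 by 0.69 ± 0.08 and the exporter ABCC2 by 0.70 ± 0.07. AKR1B1, the aldose reductase, fell from 596 and 605 to 314 and 313 CPM (-0.94 ± 0.05). NQO1, a standard NRF2 target, was not called (-0.06 ± 0.06), and HMOX1 fell by 0.32 ± 0.12.

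DNA replication genes were called lower in 20 and higher in 3 of 38, with a median of -0.20, and 15 were not called. GINS1 (-0.73 ± 0.09) and GINS4 (-0.66 ± 0.07), of the replicative helicase, and the transcription factors E2F8 (-0.69 ± 0.12) and E2F1 (-0.63 ± 0.07) had the largest changes. Mitosis genes were called lower in 20 and higher in 2 of 36, with a median of -0.18, and 14 were not called. PRC1, which bundles spindle microtubules, fell from 247 and 249 to 161 and 158 CPM (-0.64 ± 0.05), the kinesin CENPE fell by 0.64 ± 0.07 and the cyclin CCNA2 by 0.41 ± 0.06. BUB3, a checkpoint protein, rose from 189 and 197 to 295 and 293 CPM (0.61 ± 0.05), in a window whose median was 0.43. MKI67, which encodes the proliferation marker Ki-67, rose by 0.24 ± 0.04.

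Heat shock genes were called lower in 8 and higher in 1 of 21. HSPB8 fell from 79.5 and 75.1 to 45.9 and 37.5 CPM (-0.89 ± 0.09) and HSPA4L by 0.66 ± 0.07. DNAJA1 fell by 0.31 ± 0.06 (adjusted p = 0.151 against its window), and DNAJB4 by 0.27 ± 0.10, a call lost without LBD replicate 2 (-0.17, adjusted p = 0.328), without WT replicate 1 (-0.17), with DESeq2, with library totals as the only scaling and against its window.

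Epithelial junction and keratin genes were called higher in 19 and lower in 4 of 34, with a median of 0.40. The basal keratin KRT15 rose from 1.78 and 1.87 to 7.29 and 5.62 CPM (1.82 ± 0.26), the protease inhibitor SPINT1 by 1.76 ± 0.17 and the tight junction protein CLDN7 from 8.86 and 11.1 to 27.1 and 29.8 CPM (1.51 ± 0.12). KRT17 rose from 75.7 and 75.5 to 154 and 179 CPM (1.14 ± 0.07, adjusted p = 9.28e-11 in edgeR). E-cadherin, CDH1, stayed near 1 CPM and was not called (0.86 ± 0.49). KRT7 fell by 0.40 ± 0.06. Mesenchymal genes were called lower in 9 and higher in 5 of 23, with a median of -0.25. NRP2, a semaphorin and VEGF coreceptor, rose from 11.9 and 13.2 to 57.7 and 54.1 CPM (2.15 ± 0.09). The receptor PDGFRB fell by 1.42 ± 0.14 and the matrix protein TGFBI by 0.95 ± 0.07. CDH4 rose by 1.04 ± 0.37 from under 1 CPM in WT, a call lost without LBD replicate 2 (adjusted p = 0.202), either WT library or with DESeq2. VIM, the mesenchymal filament protein, fell from 400 and 408 to 333 and 341 CPM (-0.26 ± 0.05) in a window whose median was -0.64, and against that window it was higher (0.38, adjusted p = 1.08e-05).

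Genes of the TGF-beta and BMP pathways were called lower in 14 and higher in 4 of 33, with a median of -0.14. The ligand BMP2 fell from 115 and 114 to 38.3 and 36.7 CPM (-1.61 ± 0.11, adjusted p = 2.69e-10 in edgeR). Targets of BMP signalling were lower as well, with ID2 at -1.72 ± 0.21, ID3 at 117 and 120 CPM against 278 and 264 CPM in WT, and the inhibitor SMAD6 at -1.22 ± 0.12. TGFB1 rose by 0.26 ± 0.07. Notch pathway genes were called higher in 10 and lower in 4 of 25. NOTCH3 and the coactivator MAML3 (0.59 ± 0.10) were higher, while the target HEY1 fell from 17.4 and 19.0 to 6.71 and 9.03 CPM (-1.21 ± 0.14) and the ligand-like DNER by 1.91 ± 0.16. Of the other targets, NRARP rose from 22.4 and 23.3 to 30.4 and 31.5 CPM (0.44 ± 0.10, adjusted p = 0.00117 in edgeR, or 0.28 against its window), and HES1 was not called (0.05 ± 0.20). HES4 was called higher (0.49 ± 0.18), with 9.43 and 14.8 CPM in LBD and 8.50 and 8.75 CPM in WT, but not without LBD replicate 2 (0.13, adjusted p = 0.652 in edgeR; 0.79 without LBD replicate 1), without either WT library or with DESeq2.

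Wnt pathway genes were called higher in 8 and lower in 5 of 28 (8 called without WT replicate 2). The secreted inhibitor DKK1 fell from 35.3 and 35.3 to 10.0 and 11.1 CPM (-1.75 ± 0.11) and the Wnt receptor ROR2 from 26.5 and 24.4 to 8.62 and 7.53 CPM (-1.65 ± 0.12). NKD2, an inhibitor inside the cell, rose by 2.96 ± 0.62, from 2 and 3 counts to 17 and 23. TCF7L1, with 2 counts in each WT library and 17 and 11 in LBD, was not called without LBD replicate 1 (adjusted p = 0.0618 in edgeR) or without WT replicate 2. Receptor tyrosine kinases and their ligands were called higher in 8 and lower in 9 of 32 (11 called without LBD replicate 2 or without WT replicate 2). The collagen receptor DDR2 fell from 7.25 and 8.98 to 1.85 and 1.91 CPM (-2.11 ± 0.26) and MET by 0.69 ± 0.07. The ephrin receptor EPHB2 rose from 11.9 and 12.8 to 33.2 and 33.2 CPM (1.43 ± 0.10) and the EGF receptor ligand EREG by 0.95 ± 0.11.

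Semaphorins, neuropilins and plexins, guidance molecules and their receptors, were called higher in 9 and lower in 3 of 25. SEMA3A (chr7:83587659-83824217) had 99 and 126 counts in WT and 0 and 4 in LBD. SEMA7A (0.91 ± 0.20) and PLXNB3 (0.91 ± 0.19, or 0.58 without LBD replicate 2) were higher. Immediate early genes and inhibitors of ERK signalling were called higher in 9 and lower in 7 of 32, and 9 or 10 were called with DESeq2, without LBD replicate 2 or without either WT library. EGR1, a rapidly induced transcription factor, went from 3.57 and 2.33 CPM to 10.1 CPM in both LBD libraries (1.78 ± 0.26). The ERK phosphatase DUSP5 rose by 1.27 ± 0.22, IER3 by 0.90 ± 0.08 and MYC from 275 and 270 to 479 and 465 CPM (0.79 ± 0.06), although the median of the MYC window was -0.29.

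Cytosolic ribosomal protein genes were called higher in 17 and lower in 8 of 50, with a median of 0.05 (15 called against their windows). RPL12 rose by 0.35 ± 0.04, RPS13 by 0.37 ± 0.05 and RPL38 by 0.34 ± 0.05 (0.02 against its window, adjusted p = 0.782 in edgeR), and RPS20 fell from 316 and 309 to 219 and 206 CPM (-0.55 ± 0.05). Among 16 clustered histone genes, whose transcripts lack a poly(A) tail, 1 was called higher and 1 lower, HIST1H1C (0.31 ± 0.09) and HIST1H4H (-0.65 ± 0.22). Without LBD replicate 2 they were at 0.24 (adjusted p = 0.104 in edgeR) and -0.37 (adjusted p = 0.274), and neither was called without WT replicate 2. HIST1H4H was at -0.99 without LBD replicate 1. Of 4 tested short structured RNAs, the telomerase RNA TERC was called higher (2.13 ± 0.67), but not without LBD replicate 2 (1.90, adjusted p = 0.095) or without WT replicate 1, and it was at 3.37 without WT replicate 2. RMRP and RPPH1, RNA parts of ribonucleases, had 8 and 4 counts in LBD replicate 1 but 180 and 170 in LBD replicate 2. Their differences from WT (2.99 ± 1.31 and 3.98 ± 1.70, not called) therefore rest on that library. In the other groups too both RNAs had more counts in replicate 2, most in Kashlid, with 535 and 744 against 7 and 6.

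Against the SUN2 knockout, LBD differed in 1890 genes (13.5%), 938 higher (6.69%) and 952 lower (6.79%). With library totals as the only scaling, these were 1128 higher and 718 lower. Leaving out 1 of the 4 libraries gave 1355 and 884 without LBD replicates 1 and 2, and 885 and 1097 without SUN2KO replicates 1 and 2. Differences of at least 2-fold numbered 290 (2.07%). Of the interferon response list, 23 of 41 were called higher in LBD than in SUN2KO and 2 lower. OAS2 was at 0.595 and 0.752 CPM in SUN2KO and 4.75 higher in LBD on the log2 scale (adjusted p = 8.23e-12 in edgeR). CCL5 was at 3.90 and 3.81 CPM (3.51 higher) and PTGS2 at 49.7 and 42.1 CPM (2.63 higher). STC1, a secreted glycoprotein hormone, was at 0.162 and 1.02 CPM in SUN2KO, 3.53 and 18.8 CPM in LBD and 44.9 and 56.6 CPM in WT. The LBD libraries are far apart in STC1, whose difference from SUN2KO was 4.21 (2.56 without LBD replicate 2). Its fall against WT (-2.20, with -1.43 and -3.84 without LBD replicates 1 and 2) was not called with DESeq2 (adjusted p = 0.114).

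Genes lower in LBD than in SUN2KO included PZP, a protease-trapping protein (-5.06), MYLK3, at 18.6 and 18.5 CPM in SUN2KO (-3.57), DKK1 (-1.82), WISP2 (-1.78) and the alkaline phosphatase ALPP (-1.71), whose copies are closely similar. Endoplasmic reticulum chaperone and unfolded protein response genes were called higher in 18 of 26 and lower in none, with a median of 0.32. HSPA5, the chaperone BiP, was 0.79 higher in LBD than in SUN2KO (adjusted p = 1.59e-10 in edgeR), with HERPUD1 and PDIA4 each at 0.78. Sterol genes were called lower in 18 of 31 and higher in none, and ribosomal protein genes lower in 24 of 50 and higher in none. Integrins and focal adhesion genes split 5 higher and 4 lower of 30, and SRF targets 1 higher and 9 lower of 26. Fibronectin FN1 was 1.48 higher in LBD, with SUN2KO at 295 and 292 CPM.

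Compared with the other truncation, Kashlid, LBD differed in 408 genes (2.91%), 229 higher (1.63%) and 179 lower (1.28%), and 16 of these by at least 2-fold (0.114%). The count depended on single libraries, at 129 without LBD replicate 1, 138 without LBD replicate 2 and 839 without Kashlid replicate 2. SPINK6, a serine protease inhibitor of epithelia, had the largest increase, with 13.4 and 14.9 CPM in LBD and 5.67 and 4.40 CPM in Kashlid (1.49, adjusted p = 0.000102 in edgeR). The microtubule-binding protein NAV3 (0.92), the long RNA LINC00707 (0.87), DKK1 (0.86) and the reductase DHRS2 (0.84) followed. Lower in LBD were EGR1, at 32.3 and 18.4 CPM in Kashlid (-1.33, or -0.86 without Kashlid replicate 1), the troponin gene TNNT1 (-0.89), the mannosyl transfer subunit DPM3 (-0.91), the nuclear receptor NR4A2 (-0.85) and TXNIP (-0.98). TXNIP was at 404 CPM in Kashlid replicate 1 and 179 in replicate 2, and without the former its difference was -0.28 (adjusted p = 0.142 in edgeR). It was also not called without either LBD library or with DESeq2 (adjusted p = 0.179). Calls against Kashlid were also lost for NR4A2 without Kashlid replicate 1 (-0.44, adjusted p = 0.0564) or LBD replicate 1, for DPM3 without LBD replicate 1, for LINC00707 without Kashlid replicate 2 or LBD replicate 2, and for DHRS2 without either LBD library.

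Of the interferon response genes, 3 of 41 were called between the truncations (7.32%, against 2.91% of all genes), all higher in LBD, with a median of 0.04. Integrins and focal adhesion genes were called higher in 8 of 30, matrix proteases and inhibitors in 9 of 29 and mitosis genes in 8 of 36. AKR1C and NRF2 genes were called higher in 7 of 24 and heat shock genes in 6 of 21. The same held for 6 of 34 epithelial junction and keratin genes, 4 of 26 SRF targets and 4 of 36 collagens and matrix glycoproteins. None was called lower in any of these lists. How these counts per list depend on single libraries was not tested. The Kashlid libraries lie apart in some heat shock genes. HSPA1A was at 603 and 775 CPM in Kashlid, 906 and 883 CPM in LBD and 961 and 760 CPM in WT. AKR1C2 was at 14.3 and 16.5 CPM in Kashlid (0.67 higher in LBD). Ribosomal protein genes were called lower in 25 of 50 and higher in none, with a median of -0.16, so that the list was at a lower level in LBD than in either of the other modified lines. Its summed level was 38007 and 38760 CPM in LBD, 41956 and 41589 CPM in SUN2KO, 41974 and 42567 CPM in Kashlid and 37450 and 37051 CPM in WT.

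Finally, 63 genes (0.449%) differed in LBD from WT, SUN2KO and Kashlid alike, 40 higher (0.285%) and 23 lower (0.164%). This number was 21 without LBD replicate 2, 37 without LBD replicate 1, 35 and 41 without SUN2KO replicates 1 and 2, 47 and 43 without WT replicates 1 and 2, 49 without Kashlid replicate 1 and 116 without Kashlid replicate 2. SPINK6 (chr5:147582357-147594700) was higher than in every other group by at least 1.33 on the log2 scale. The receptor IL7R was at 37.5 and 48.1 CPM in LBD. It was at 17.8 and 19.0 CPM in WT, 15.1 and 13.8 in SUN2KO and 24.7 and 26.0 in Kashlid. NT5E was at 47.9 and 57.8 CPM, above the 17.9 to 33.5 CPM of all other libraries. SECTM1, the lysosomal protease CTSS and KIAA0319 were the others of the 6 largest increases, and each lost its call against Kashlid without LBD replicate 1, with adjusted p-values from 0.13 to 0.162 in edgeR. Also among the 40 were ITGA2, ITGA5, ITGB4, the urokinase receptor PLAUR, the matrix proteins TNC and LAMB3, CD44, KRT17, OAS1, OAS3, ICAM1 and TMEM43, named after their values were seen.

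Of the 23 lower genes, PCOLCE, an enhancer of procollagen processing, was at 80.7 and 78.3 CPM in LBD, 114 and 117 in WT, 104 in both SUN2KO libraries and 99.7 and 105 in Kashlid. It kept its call in every comparison when any library was left out. UST, which sulfates glycosaminoglycans, was at 5.55 and 5.80 CPM in LBD and 7.74 to 13.4 CPM in the other libraries. CASP9, the initiator caspase of the mitochondrial pathway, was at 44.0 and 41.6 CPM, with 77.0 and 78.3 in WT, 77.0 and 70.7 in SUN2KO and 62.6 and 47.7 in Kashlid. UST, CASP9, CPED1, SMDT1 (a regulator of the mitochondrial calcium uniporter) and NREP each lost the call against Kashlid without LBD replicate 2, with adjusted p-values from 0.11 to 0.23 in edgeR. Without Kashlid replicate 1, UST was at -0.45 (adjusted p = 0.295) and CASP9 at -0.16 (adjusted p = 0.438). Without Kashlid replicate 2, NREP was at -0.28 (adjusted p = 0.129). Calls against SUN2KO were lost for SMDT1 with DESeq2 and without any of the 4 libraries in turn, and for NREP and CPED1 without some.

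**Figure D5:**
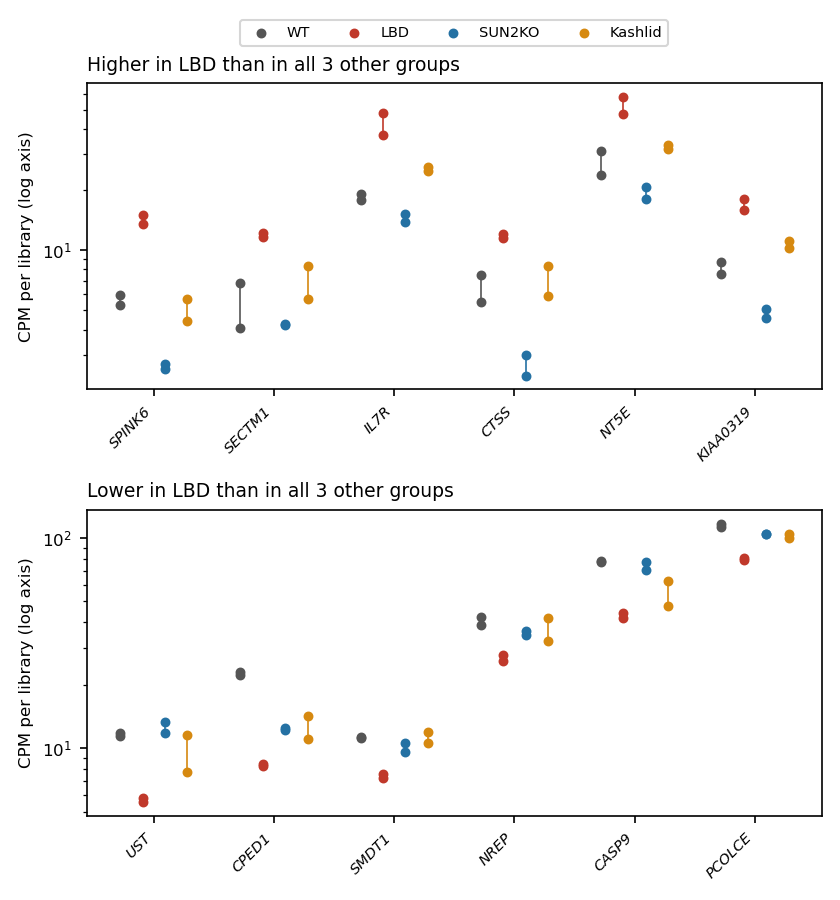
Level in CPM (log axis) of the 6 genes with the largest increases and the 6 with the largest decreases that set LBD apart from all 3 other groups, with 1 point per library and a line joining the 2 libraries of a group. LBD points lie above all others in the top panel and below all others in the bottom panel, closest for CASP9 (44.0 and 41.6 CPM against 47.7 CPM in Kashlid replicate 2).

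The authors' deposited table for LBD against WT gave SUN2 a log2 fold change of -1.30 and OASL one of 2.68, and its adjusted p was under 0.05 for 3883 genes. Of the 3876 of these that were tested here, 3865 were called in the same direction. STC1 was not among them, with an adjusted p of 0.121 in the authors' deposited table.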

How the data were processed

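RNA from 10000000 MDA-MB-231 cells per sample was sequenced as paired-end reads, per the labels' protocols, with a kit that does not mark strand, so reads of overlapping and antisense genes cannot be told apart. Per the submitters' processing notes, Trim Galore, STAR 2.7.1a, HTSeq, bedtools 2.24.0 and DESeq2 were used with the hg19 build. The counts analysed are the whole-number read counts per gene deposited by the authors. The authors' deposited table of LBD against WT gave log2 fold changes and p-values. Another 12 per-library columns whose names match no sample were not used.

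Counts of all 8 libraries were fitted with edgeR 4.0.16 (R 4.3.3) as 1 term per group with 4 residual degrees of freedom, after the filterByExpr filter and TMM scaling. CPM are scaled by the same factors. Genes were tested with the two-sided quasi-likelihood test at a Benjamini-Hochberg adjusted p under 0.05. The standard error is the log2 fold change divided by the root of its F statistic. The procedure was tested on simulated data. Totals of 16570099 to 18814795 counts set the precision, and 2 libraries per group limit it. Alternatives were other scaling (median-ratio factors, library totals), no filter, a filter of 5 CPM in 2 libraries, DESeq2 1.42.0, only the groups compared, a replicate block, each library left out, and an offset by 5 Mb window.

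The 39 gene lists and the comparison itself were chosen with earlier results of these data known. Genes were named by rule. SUN2 was named first. Then came the 12 largest log2 fold changes each way against WT (at least 5 CPM on average), the 5 largest CPM differences each way, the 5 each way against SUN2KO and Kashlid, the 6 each way apart from all groups, and up to 4 called members per list with the largest change. These rules gave 194 genes, and any other gene in the text was picked after its values were seen. Promoters come from RefSeq. Some genes and 1 list are not reported here.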

Additional observations from a re-analysis of the deposited data

Results flagged for a closer look

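Of the 12 largest increases and 12 largest decreases against WT, 2 genes also differed between the truncation lines, LBD and Kashlid, by the test of that difference itself. Among all genes tested, 2.91% were called between these lines. AKR1C2 was higher in LBD (24.9 and 24.3 CPM) than in Kashlid (14.3 and 16.5 CPM), by 0.67 on the log2 scale (adjusted p = 0.00309 in edgeR). TC2N was lower in LBD (18.8 and 21.9 CPM) than in Kashlid (29.6 and 26.8 CPM), by -0.47 (adjusted p = 0.0212 in edgeR). Both genes were higher in LBD than in WT, and their LBD and Kashlid libraries did not overlap. Their choice by a call in both comparisons fixed a difference from WT and made the lack of overlap likely. With 2 libraries per group no single library could be tested as an outlier.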

How the results depend on the processing

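Of 193 named genes fitted against WT under the alternatives, 161 kept their call and direction in all of them, and SUN2 stayed between -1.41 and -1.25. The number called against WT was 4309 with DESeq2, 5701 without a filter and 5648 with library totals as the only scaling (3059 higher, 2589 lower). Genes at least 2-fold different were 358 under the stricter filter, which tests fewer genes, and 693 to 772 with 1 library left out. Against SUN2KO 1246 genes were called with DESeq2 and 884 to 1355 with 1 library left out. Against Kashlid 775 were called without a filter, 129 when only the groups compared were fitted and 129 to 839 with 1 library left out. Genes apart from all 3 groups numbered 112 without a filter, 28 with only the groups compared and 21 to 116 with 1 library left out. The cause of these shifts was not tested. Measured against their windows, SUV39H2 (0.08, adjusted p = 0.566 in edgeR) and VIM (0.38, adjusted p = 1.08e-05) turned to higher. Replicate differences correlated at -0.00742 to 0.0844 between groups over all genes, so the main fit did not pair the samples by replicate number. Such a correlation cannot show whether some genes share a replicate batch, and this was not tested. With a replicate block 5798 genes were called against WT, 2134 against SUN2KO, 581 against Kashlid and 88 apart. Without it the numbers were 5611, 1890, 408 and 63. With 1 library left out a group of 1 is assumed to vary like the others. Genes under about 1 CPM had few counts, and their fold changes are imprecise.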

Other observations

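A group of genes chosen after seeing the data was close to absent in either LBD or WT, with at most 3 counts summed over a group and at least 10 in each library of the other. It held 25 genes that were higher in LBD and 36 that were lower. Of the higher genes, 20 were also above 3 counts in both other modified lines, and of the lower genes, 14 were also at or under 3 counts in both. These limits are unlike, so the counts do not show whether increases or decreases are shared more often. CALB2, with 10 counts in sum in SUN2KO against 239 in LBD, passes the former limit. MMP16, with 5 in SUN2KO against 256 in WT, fails the latter. DLC1 had 109 and 141 counts in WT and 0 in both LBD libraries, at least 82.3-fold lower against a floor of 3 counts over the group, and SUN2KO and Kashlid had 1 count each in sum. NETO1 (81 and 115 counts in WT, 0 in LBD) and the thrombin receptor THBD (53 and 60 counts in WT, 0 in LBD) were at least 64.6-fold and 37.2-fold lower, and both were at 0 in every library of the other lines. COX7B2 (56 counts in each WT library) and TPTE (67 and 75 counts) had 0 counts in all 6 libraries of the modified lines. WFDC1 went from 100 and 105 counts to 0.

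In the other direction, the membrane adaptor ANK2 had 0 counts in WT and 37 and 30 in LBD, at least 22.6-fold higher, with 38 and 37 in SUN2KO and 70 and 43 in Kashlid. SOBP (25 and 24 counts in LBD) and TRIM6 (28 and 21 counts in LBD) were at 0 in WT and present in all 6 libraries of the modified lines. The microRNA-processing regulator LIN28B had 12 and 11 counts in LBD and 0 in WT.

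Some of these genes divided the modified lines. MAPK4, an atypical MAP kinase, was nearly absent in LBD (0 and 1 counts) and Kashlid (1 and 0 counts), while WT had 49 and 33 counts and SUN2KO had 50 and 52. CALB2, a calcium-binding protein, had 145 and 94 counts in LBD, 79 and 126 in Kashlid, 4 and 6 in SUN2KO and 0 and 3 in WT. The embryonic globin HBE1 had 13 and 10 counts in LBD, 14 and 21 in Kashlid, 1 and 2 in SUN2KO and 0 in WT. The interferon-induced GTPase GBP5 had 18 and 12 counts in LBD, 2 and 1 in WT, 0 in SUN2KO and 8 and 2 in Kashlid. Fold changes against groups with so few counts are not given.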
